A study of Capra hircus with 8 samples.

Results

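The genes described here are 36 listed genes of blood and lymphatic vessels, chosen by their symbol in the deposited count table. Of the 36, 34 were among the 18815 genes of that table, and all 34 were among the 14085 genes tested; SOX7 and STAB1 were not analysed here. They fall into 25 endothelial genes, 2 co-receptors (NRP1 and NRP2) and 7 ligands (VEGFA, VEGFB, VEGFC, ANGPT1, ANGPT2, ANGPTL1 and APLN). RNA sequencing of polyadenylated RNA was done on skin of cashmere goats, kept for the fine undercoat of their fleece, and of milk goats (Capra hircus). The 8 libraries cover months 3, 6, 9 and 12, 1 from cashmere and 1 from milk goats each time, and no treatment is named. The month is entered as an age in the labels but only as a month in the stated design, and which is meant is not settled. How many animals a library holds is not stated either, so the p-values measure only the spread between these libraries, which may be technical. With 1 library per breed and month, the spread behind the breed and month tests also holds any breed difference that varies between months.

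Endothelial cells line blood and lymphatic vessels and are held together by junction proteins such as VE-cadherin (CDH5) and claudin 5 (CLDN5). Vascular endothelial growth factors (VEGFs) act on the receptors KDR, FLT1 and FLT4 of these cells, angiopoietins act on TEK, and apelin (APLN) acts on APLNR. VEGFA is the main signal for new blood vessels, and VEGFC, through FLT4, for lymphatic ones. In skin, the vessel net around the hair follicle is known, from work in mice, to widen while hair grows and to shrink while the follicle rests, and follicle keratinocytes are a source of VEGFA there. The comparisons ask how vessel cell genes and the ligands that act on them ran over the months and between the breeds.

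Library totals were 7480053 to 8718429 reads in cashmere goats and 11333734 to 13899750 reads in milk goats, so depth and breed cannot be told apart; the breed test was therefore also run with the milk goat libraries thinned to the mean cashmere goat total. Levels are counts per 1000000 reads (CPM) after TMM scaling, which corrects library totals for composition. The milk goat library of month 9 had the smallest TMM factor, 0.783. A count of 0 would have allowed up to 3 reads, 0.231 to 0.395 CPM. Each of the 34 genes lay above that in every library, and the lowest count was 8 reads, for SOX17 in cashmere goats at month 12. These limits cover counting error only. Markers of the labelled tissue were present in every library: 8 of 9 keratinocyte genes summed to 29263 to 33382 CPM in cashmere goats and 30057 to 54737 CPM in milk goats. The 9 dermal fibroblast genes summed to 3186 to 34735 CPM in cashmere goats and 2881 to 20951 CPM in milk goats.

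On the per-length scale (FPKM, mean of the 8 libraries), the most abundant of the 34 genes was PECAM1, an adhesion molecule of endothelial cells, at 23.9 FPKM. PLVAP, which forms the diaphragms of endothelial pores, followed at 21.1 FPKM, and the ligand VEGFB at 20.1 FPKM. The co-receptor NRP1 stood at 12.9 FPKM, VWF at 9.45 FPKM, VEGFA at 9.06 FPKM and KDR at 7.18 FPKM. The lowest were the lymphatic transcription factor PROX1 at 0.629 FPKM, the transcription factor SOX17 at 0.580 FPKM and FLT4 at 0.474 FPKM.

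**Figure D1:**
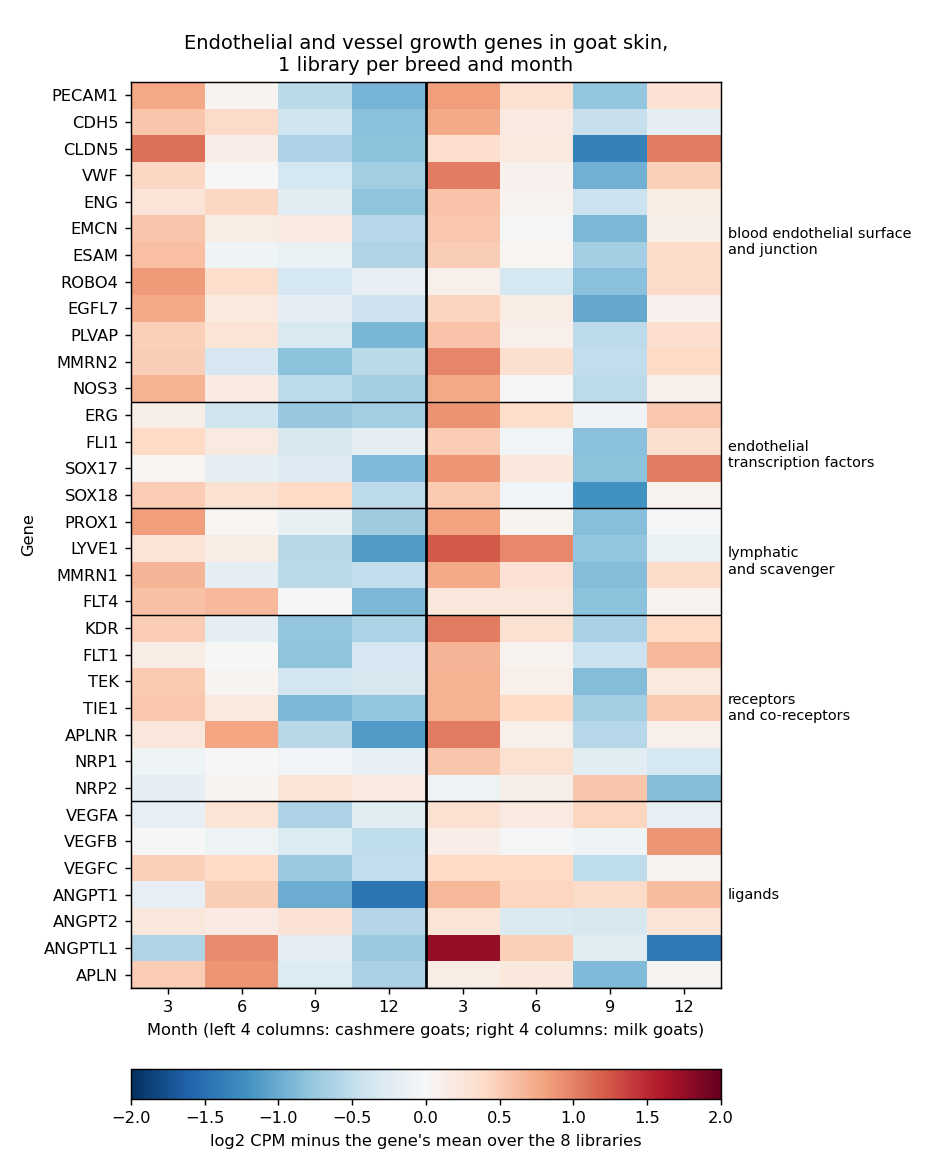
Colours give log2 CPM (prior count 2) minus each gene's mean over the 8 libraries, for 34 genes in rows by role and libraries in columns by breed and month. The endothelial blocks are red at month 3 in both breeds and blue at month 12 in cashmere goats and at month 9 in milk goats, while NRP1, NRP2 and the ligands do not share 1 course.

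Most endothelial genes shared a course within each breed, high at month 3, and the 2 breeds differed in which month was lowest. Relative to each gene's mean over the 8 libraries, the median of the 25 endothelial genes was 0.52, 0.14, -0.38 and -0.70 on the log2 CPM scale in cashmere goats (months 3, 6, 9 and 12). The milk goat medians were 0.70, 0.11, -0.78 and 0.32. The median of all 14085 tested genes lay between -0.03 and 0.01 in the 8 libraries. In cashmere goats month 3 was the highest of the 4 months for 22 of the 25 genes (31.3% of all tested genes), and month 12 the lowest for 16 (24.9% of all tested genes). In milk goats month 3 was the highest for 21 (25.2% of all tested genes), and month 9 the lowest for all 25 (34% of all tested genes). On library totals month 9 was again the lowest for all 25, but so it was for 60.6% of all tested genes. Month 3 was then the highest for 22 of them (39.2% of all tested genes), and for 24 in cashmere goats (46.5%). In cashmere goats, month 9 was at least 1.5-fold below month 6 for 12 endothelial genes and 5 ligands (8.04% of all tested genes). In milk goats it was so for 20 endothelial genes and 3 ligands (14.8% of all tested genes), and month 12 was at least 1.5-fold above month 9 for 23 endothelial genes and 4 ligands (22.3% of all tested genes). On library totals all 25 endothelial genes made each of these milk goat steps, against 33% and 38.2% of all tested genes. These steps compare single libraries and carry no test. Levels are relative to the other reads of a library. In whole skin, fewer endothelial cells, less RNA per cell and more RNA from other cells cannot be told apart.

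PECAM1 had 220, 134, 88.8 and 67.2 CPM in cashmere goats and 231, 158, 74.9 and 157 CPM in milk goats at months 3, 6, 9 and 12. CDH5, the cadherin of endothelial junctions, had 36.6, 32.5, 18.7 and 13.8 CPM in cashmere goats and 41.8, 28.1, 18.0 and 21.6 CPM in milk goats. VWF, a clotting factor stored in endothelial cells, had 172, 130, 101 and 79.4 CPM in cashmere goats and 263, 137, 66.3 and 179 CPM in milk goats. All 3 genes were at their lowest in cashmere goats at month 12 and in milk goats at month 9, and the breeds' ranges overlapped.

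MMRN2, an extracellular protein of endothelial cells, had 32.0, 17.9, 12.8 and 15.5 CPM in cashmere goats at months 3, 6, 9 and 12 and 44.6, 28.4, 16.0 and 30.1 CPM in milk goats. ROBO4, an endothelial guidance receptor, had 13.5, 9.50, 5.72 and 6.58 CPM in cashmere goats and 7.97, 5.77, 4.04 and 9.68 CPM in milk goats. EGFL7, a secreted factor of vessel walls, had 35.9, 24.2, 18.3 and 15.8 CPM in cashmere goats and 28.7, 23.5, 10.3 and 22.3 CPM in milk goats. ROBO4 and EGFL7 were higher in cashmere goats in months 3, 6 and 9 and lower in month 12, and MMRN2 was lower in cashmere goats in all 4 months, though not at month 9 on library totals (12.8 CPM in cashmere goats and 12.5 CPM in milk goats). The other 6 surface and junction genes (CLDN5, ENG, EMCN, ESAM, PLVAP and NOS3) spanned 3.42 to 98.4 CPM in cashmere goats and 3.86 to 105 CPM in milk goats.

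Among the transcription factors, SOX17, which acts in arterial endothelium, had 2.17, 1.80, 1.72 and 1.05 CPM in cashmere goats at months 3, 6, 9 and 12 and 4.07, 2.46, 1.10 and 4.49 CPM in milk goats. SOX18, needed for lymphatic development in mice, had 9.84, 8.54, 9.15 and 4.74 CPM in cashmere goats and 9.92, 6.62, 2.85 and 7.22 CPM in milk goats. The milk goat value of month 9 was the lowest of the 8 for SOX18, and the cashmere goat value of month 12 was the lowest of the 8 for SOX17. On library totals SOX17 was lowest in milk goats at month 9, at 0.863 CPM, against 1.07 CPM in cashmere goats at month 12.

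Among the lymphatic genes, PROX1 and LYVE1 were highest at month 3 in both breeds. PROX1, which sets lymphatic identity, had 15.8, 9.02, 7.90 and 5.26 CPM in cashmere goats at months 3, 6, 9 and 12 and 15.4, 9.08, 4.78 and 8.62 CPM in milk goats. LYVE1, a hyaluronan receptor of lymphatic vessels and of some macrophages, had 12.4, 11.4, 6.98 and 4.60 CPM in cashmere goats and 24.4, 20.2, 5.97 and 9.42 CPM in milk goats. FLT4, the VEGFC receptor, had 6.63, 6.98, 4.23 and 2.24 CPM in cashmere goats and 5.12, 5.15, 2.39 and 4.58 CPM in milk goats. PROX1 levels were close between the breeds at months 3 and 6, whereas LYVE1 was lower in cashmere goats at both. MMRN1, a multimerin also found in platelets, spanned 13.8 to 32.5 CPM in cashmere goats and 11.0 to 34.3 CPM in milk goats.

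KDR, the main VEGFA receptor, had 97.2, 60.0, 39.5 and 43.8 CPM in cashmere goats at months 3, 6, 9 and 12 and 141, 83.9, 43.4 and 90.2 CPM in milk goats. FLT1, which binds VEGFA and VEGFB, had 30.9, 28.1, 15.9 and 22.0 CPM in cashmere goats and 44.7, 29.4, 20.7 and 43.8 CPM in milk goats. TEK, the angiopoietin receptor, had 26.1, 18.9, 13.8 and 14.5 CPM in cashmere goats and 29.5, 19.5, 9.83 and 20.8 CPM in milk goats. Each of these 3 receptors was at its lowest at month 9 in both breeds. APLNR, the apelin receptor, had 11.1, 16.6, 6.41 and 4.21 CPM in cashmere goats, with its peak at month 6, and 19.6, 10.2, 6.34 and 10.2 CPM in milk goats. TIE1, a receptor related to TEK, spanned 6.06 to 16.7 CPM in cashmere goats and 6.98 to 18.6 CPM in milk goats.

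**Figure D2:**
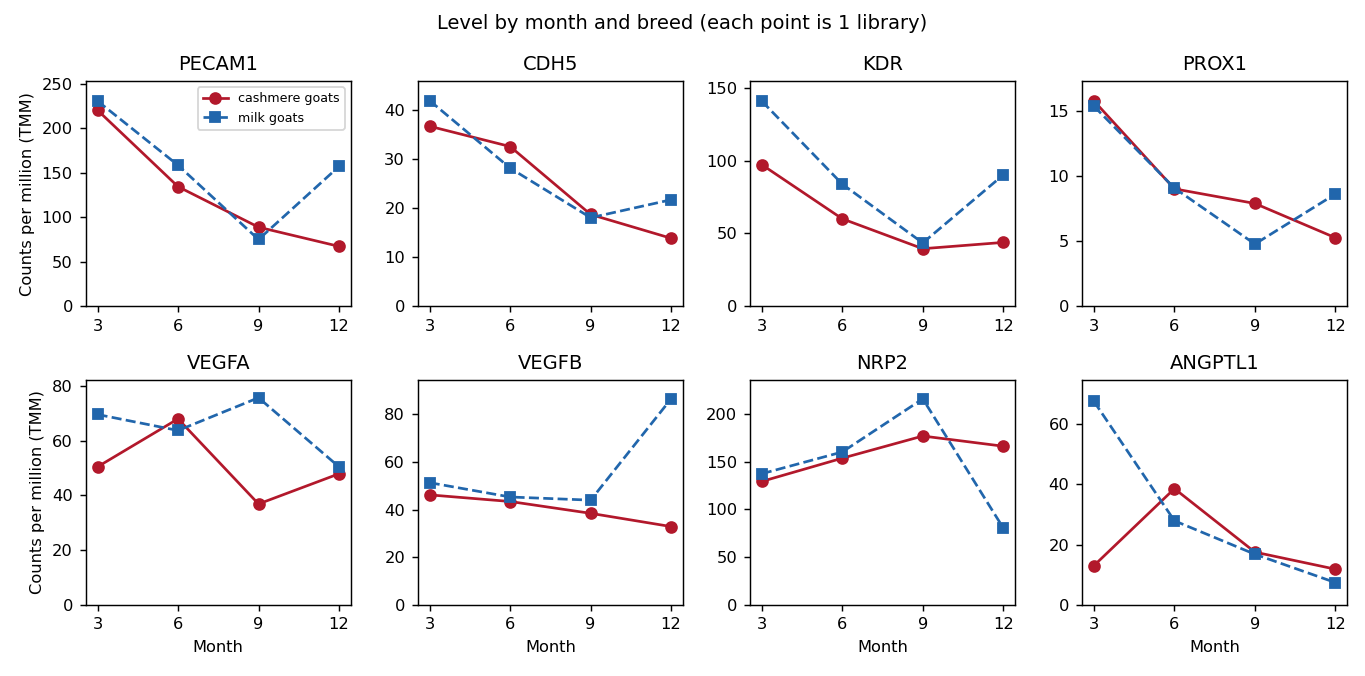
Level (TMM-scaled counts per 1000000 reads, linear axis from 0) by month in cashmere goats (circles, solid) and milk goats (squares, dashed), 1 library per point, for 4 endothelial genes, the co-receptor NRP2 and the ligands VEGFA, VEGFB and ANGPTL1. PECAM1, CDH5, KDR and PROX1 are highest at month 3 in both breeds, and VEGFB in milk goats peaks at month 12 at 86.6 CPM.

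The co-receptors did not share the endothelial course. NRP2, which binds VEGFC and semaphorins, had 129, 154, 177 and 166 CPM in cashmere goats at months 3, 6, 9 and 12 and 137, 160, 216 and 80.5 CPM in milk goats, so month 9 was its highest month in both breeds. NRP1, which binds VEGFA and semaphorins, stayed within 113 to 127 CPM in cashmere goats, against 99.4 to 186 CPM in milk goats, where month 12 was the lowest (month 9 on library totals). NRP1 and NRP2 are also made by cells other than endothelium. They are given in more detail than the rule for named genes asks, as are FLI1 and CLDN5 below, since their values stood out once seen.

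The ligands ran apart from each other. VEGFA had 50.4, 68.0, 36.8 and 47.9 CPM in cashmere goats at months 3, 6, 9 and 12 and 69.5, 63.7, 75.7 and 50.4 CPM in milk goats. At month 9 VEGFA was at its lowest in cashmere goats. Its month 9 peak in milk goats depended on the scaling: on library totals, without TMM factors, VEGFA had 57.0, 69.3, 36.9 and 48.7 CPM in cashmere goats and 75.4, 64.5, 59.3 and 49.9 CPM in milk goats, highest at month 3. VEGFB, a ligand of FLT1, had 46.2, 43.4, 38.4 and 32.9 CPM in cashmere goats and 51.3, 45.3, 44.0 and 86.6 CPM in milk goats. VEGFC had 11.0, 10.3, 4.58 and 5.52 CPM in cashmere goats and 10.4, 10.3, 5.42 and 8.18 CPM in milk goats. In both breeds VEGFC was high at months 3 and 6 and lowest at month 9.

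ANGPT1, which activates TEK, had 7.66, 12.1, 4.23 and 3.03 CPM in cashmere goats at months 3, 6, 9 and 12 and 13.7, 11.6, 11.3 and 13.5 CPM in milk goats. Its highest value was 4.02 times its lowest in cashmere goats and 1.22 times in milk goats (4.03 and 1.69 times on library totals). ANGPT2, released by endothelial cells as a context-dependent antagonist of TEK, had 6.18, 5.89, 6.41 and 3.42 CPM in cashmere goats and 6.34, 4.23, 4.13 and 6.34 CPM in milk goats. ANGPTL1, an angiopoietin-related secreted protein, had 13.0, 38.6, 17.5 and 11.8 CPM in cashmere goats and 67.6, 27.9, 16.8 and 7.39 CPM in milk goats. Its highest value in milk goats was 9.14 times its lowest, the widest span among the 34 genes in either breed. APLN had 4.69, 6.13, 2.63 and 1.97 CPM in cashmere goats and 3.58, 3.77, 1.65 and 3.34 CPM in milk goats, and was highest at month 6 in both breeds (at month 3 in milk goats on library totals).

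Month 9 was compared with month 3. Both libraries of month 9 lay below both libraries of month 3 for 25 of 25 endothelial genes, 3 of 7 ligands (VEGFB, VEGFC and APLN) and neither co-receptor, against 25.8% of all tested genes. On library totals it was so for the same genes and for ANGPT2 and NRP1, against 42.3% of all tested genes. The median log2 fold change of month 9 over month 3 was -1.19 for the endothelial genes and -0.53 for the ligands, against -0.00 for all tested genes. Its sign was negative for 33 of the 34 genes, with NRP2 the exception at 0.56 ± 0.32 (SE). KDR was 2.80-fold lower (-1.49 ± 0.23, unadjusted p = 0.000312, adjusted p = 0.108 in edgeR's quasi-likelihood test), and MMRN2 2.64-fold lower (-1.40 ± 0.22, unadjusted p = 0.000272, adjusted p = 0.108). VEGFA stood at -0.12 ± 0.27 and VEGFB at -0.25 ± 0.32.

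No gene passed the adjusted threshold of 0.05 in edgeR for this contrast (0 of 14085), while 23.6% of all tested genes had an unadjusted p under 0.05, 11% with a lower value at month 9. Unadjusted, 22 of the 34 genes were lower at month 9: 21 of the 25 endothelial genes and, among the ligands, VEGFC. DESeq2, run as an alternative, called 1107 genes (7.86% of all tested genes), 17 of them among the 34 and all 17 lower at month 9. The edgeR count turned on month 12. Without the cashmere goat library of month 12, 20 of the 34 genes were called lower and 2027 genes in all (14.1% of those tested). Without the milk goat library of month 12 it was the same 20 genes and 1924 in all (13.7%). The library of month 12 that stays sets only the level of its own month. Both fits therefore rest on the same libraries of the other months, and their agreement is not a separate check. Leaving out any other library gave 0 of the 34.

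The test of any difference among the 4 months called 0 genes in edgeR, with 13.4% of all tested genes at an unadjusted p under 0.05. Of the 34, 15 had such a p: 14 endothelial genes and VEGFC. DESeq2 called 536 genes (3.81% of all tested genes), among them CDH5, KDR, LYVE1, MMRN1, MMRN2 and PECAM1. This count also turned on month 12: 12 of the 34 were called without the cashmere goat library of month 12 (8.22% of all tested genes) and 3 (KDR, MMRN2 and PECAM1) without that of milk goats (0.774% of all tested genes). Month 12 over month 6 gave 0 calls in edgeR, with 7.6% of all tested genes at an unadjusted p under 0.05, and DESeq2 called 94 genes (0.667%), 0 of them among the 34. An unadjusted p under 0.05 was reached by ANGPTL1 at -1.80 ± 0.67, LYVE1 at -1.18 ± 0.34 and CDH5 at -0.78 ± 0.24, all 3 lower at month 12 (3.6% of all tested genes). With the month 12 library of cashmere goats left out, NRP2 was called lower and VEGFB higher at month 12, which is 2 of the 34 against 3.15% of all tested genes.

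**Figure D3:**
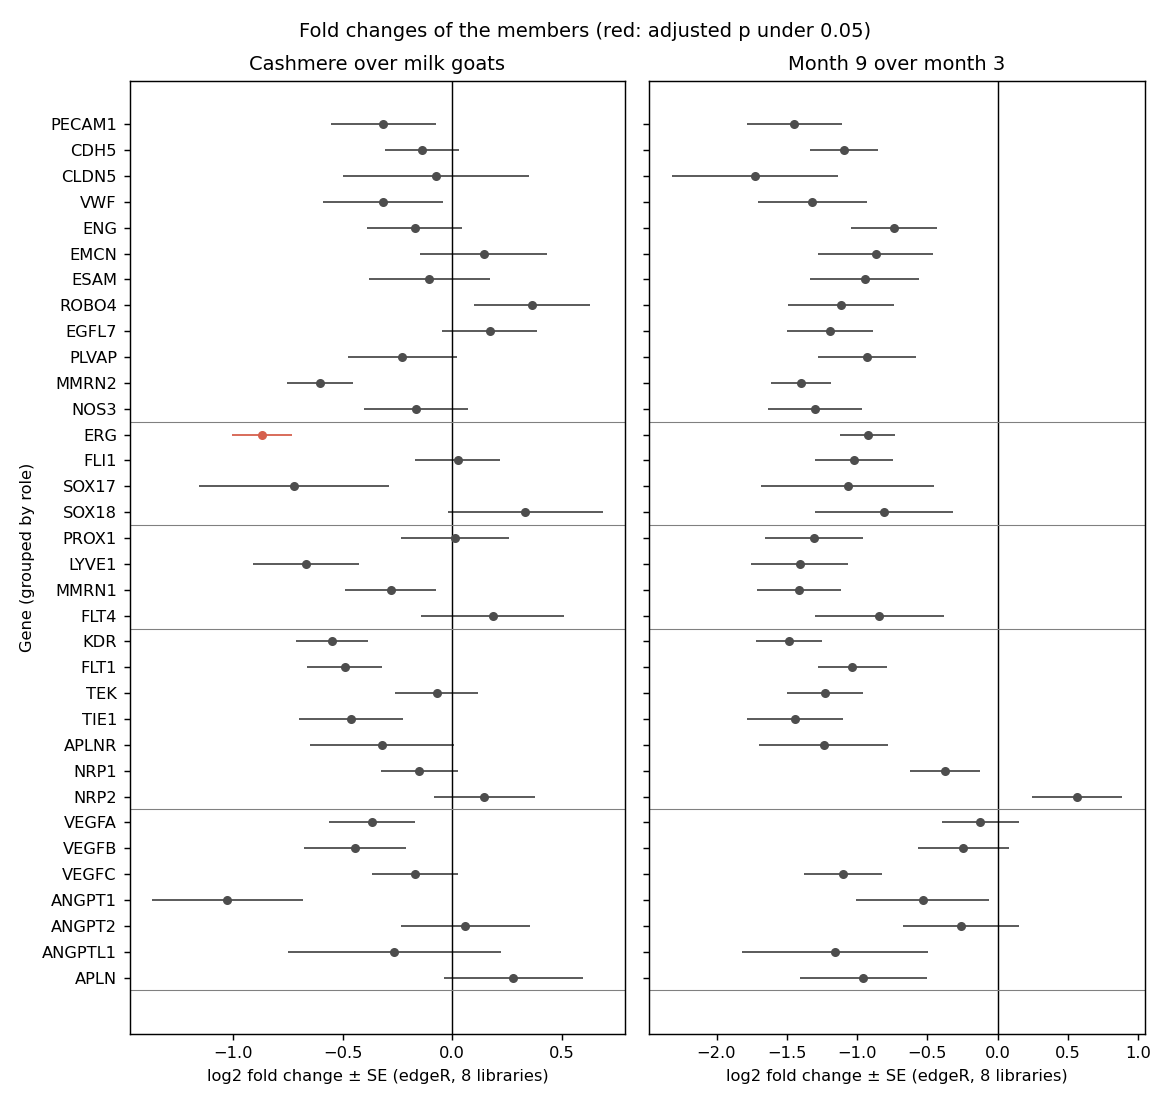
Points give edgeR log2 fold changes with standard errors (bars) for the 34 genes, of cashmere over milk goats (left) and of month 9 over month 3 (right), from the 8 libraries. ERG, in red, is past the adjusted threshold in the breed contrast, and in the month contrast every gene except NRP2 lies below 0 while none passes.

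ERG (gene1042), an ETS transcription factor that keeps endothelial identity, was lower in cashmere goats. It had 45.3, 31.5, 24.6 and 25.5 CPM in cashmere goats at months 3, 6, 9 and 12 and 77.8, 53.2, 39.8 and 60.8 CPM in milk goats. Cashmere goats were below milk goats in each of the 4 months, although the highest cashmere goat library was above the lowest milk goat one. ERG fell 1.83-fold (log2 fold change -0.87 ± 0.14 SE, adjusted p = 0.0287, edgeR), to a mean of 31.7 ± 9.54 CPM in cashmere goats, against 57.9 ± 15.9 CPM in milk goats (SD, n = 4 each). It was the 1 gene of the 34 past the threshold, against 4.79% of all tested genes (3.32% lower and 1.47% higher). Unadjusted, 6 of the 34 had a p under 0.05, all lower in cashmere goats (ERG, MMRN2, KDR, FLT1, LYVE1 and ANGPT1), against 26.9% of all tested genes in either direction. With milk goat libraries thinned to equal depth its adjusted p was 0.0284, and without both libraries of month 12 it was 0.0247. ERG was also called without the cashmere goat library of month 12 (6.05% of all tested genes) and without the milk goat one (5.29%). These are not separate checks, since leaving out either library of a month takes that month out of the breed contrast. Both largely repeat the fit without both libraries of month 12 (log2 fold change -0.74 and -0.77, against -0.74). The fits for the other months pair up in the same way. The call was lost without any 1 of the 6 libraries of months 3, 6 and 9 (adjusted p 0.101 to 0.114, log2 fold change -0.94 to -0.90), where at most 4 genes of the whole table were called. It was also lost in a model without month (adjusted p = 0.0913), in limma on log2 FPKM (0.0515 and 0.0551) and in the second deposited count table (0.0903).

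FLI1, the other ETS factor among the 34, was not called. It averaged 20.8 ± 4.86 CPM in cashmere goats and 21.2 ± 7.66 CPM in milk goats (SD, n = 4 each), with a log2 fold change of 0.02 ± 0.19 (adjusted p = 0.949). ANGPT1 stood at 6.77 ± 4.09 CPM in cashmere goats and 12.5 ± 1.25 CPM in milk goats (SD, n = 4 each), or -1.03 ± 0.34, which did not pass in edgeR (adjusted p = 0.118). Its size turned on month 12: it was -0.69 without the cashmere goat library of that month and -0.71 without the milk goat one. With all 8 libraries, next after ANGPT1 and ERG came SOX17 at -0.72 ± 0.43 (adjusted p = 0.319), LYVE1 at -0.67 ± 0.24 (0.139) and MMRN2 at -0.60 ± 0.15 (0.0651). At the other end stood ROBO4 at 0.36 ± 0.27 (0.410), SOX18 at 0.33 ± 0.35 (0.576), APLN at 0.28 ± 0.32 (0.603), FLT4 at 0.18 ± 0.33 (0.752) and EGFL7 at 0.17 ± 0.22 (0.643). With 1 library left out, SOX17 lay between -1.10 and -0.33, closest to 0 without a library of month 12. ROBO4 lay between 0.20 and 0.67 and APLN between 0.079 and 0.58, both highest without the cashmere goat library of month 12. DESeq2 called ANGPT1, ERG, KDR and MMRN2 lower in cashmere goats, among 1691 genes (12% of all tested genes).

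Across the 34 genes the median breed log2 fold change was -0.17, with 24 below 0, against 0.03 for all tested genes. This median turned on which month was left out, since without either of its libraries a month carries no breed contrast. It was -0.03 with 18 below 0 without the cashmere goat library of month 12 and -0.05 with 19 below 0 without the milk goat one. It was -0.30 with 31 below 0 without the cashmere goat library of month 9, -0.29 with 30 without the milk goat one, -0.27 with 26 without the cashmere goat library of month 6 and -0.31 with 27 without the milk goat one. On the FPKM scale it was 0.02 with a pseudocount of 1 and 0.03 with 0.1, and 16 of 34 were below 0, but there the median of all tested genes was itself 0.16 and 0.23. Cashmere goats were below milk goats in all 4 months for 6 of the 34 genes (ERG, FLT1, KDR, TIE1, MMRN2 and VEGFB), against 18.1% of all tested genes, and above in all 4 months for 0 of the 34, against 19.6%. On library totals they were below in all 4 months for 2 (ERG and FLT1), against 11.6% of all tested genes. For none of the 34 did all 4 cashmere goat libraries lie below all 4 milk goat libraries, as 8.02% of all tested genes did.

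The single-library breed ratios differed in size between the months. At month 12 cashmere goats had the lower level for all 25 endothelial genes, and the median log2 ratio of cashmere over milk goats was -0.99, against -0.02 for all tested genes. At months 3, 6 and 9 the medians were -0.11, -0.05 and 0.33, against 0.02, 0.00 and 0.06 for all tested genes. At least a 1.5-fold lower level in cashmere goats was seen at month 12 for 25 of the 34 genes (22.5% of all tested genes). At month 9 at least a 1.5-fold higher level was seen for 10 of the 34 (17% of all tested genes), among them SOX18, CLDN5, PROX1 and VWF. On library totals it was seen for 16 (37.4% of all tested genes). Each of these ratios sets a single library against a single library and has no test.

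Single genes showed how far this went. CLDN5 had 33.3, 17.0, 10.1 and 8.68 CPM in cashmere goats at months 3, 6, 9 and 12 and 19.7, 17.7, 5.97 and 31.5 CPM in milk goats. Its log2 ratio of cashmere over milk goats was 0.76 at month 3 and -1.86 at month 12 (95% exact binomial interval, for counting error only, 0.51 to 1.01 and -2.26 to -1.48). For ERG the ratio was -0.78, -0.75, -0.69 and -1.25 at months 3, 6, 9 and 12. For VEGFA it was -0.46, 0.09, -1.04 and -0.07, so month 12, where the endothelial genes differed most, was not where VEGFA did.

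Ligands were lower in cashmere goats at month 12 for 6 of 7 genes, at a median of -0.73, with ANGPT1 at -2.15 and VEGFB at -1.40 and with ANGPTL1 the exception at 0.68. At month 3 ANGPTL1 stood at -2.37. Both co-receptors were higher in cashmere goats at month 12, NRP2 at 1.04. The test of whether the breed difference varied over a 12-month cycle called 0 genes in edgeR, with 6.42% of all tested genes at an unadjusted p under 0.05, and DESeq2 called 80 genes (0.568%), 0 of them among the 34. Such a cycle assumes months of the year, which is not settled, and a difference at month 12 alone falls partly outside it. Of the 34, 6 had an unadjusted p under 0.05 in edgeR: ANGPT1 (0.00764), APLNR (0.00994), ENG (0.0206), VWF (0.0254), PLVAP (0.0441) and VEGFB (0.0489). ANGPTL1 and NRP2 were called without the milk goat library of month 6 (3.56% of all tested genes), and ANGPTL1 without that of month 9 (1.07% of all tested genes), each in a fit with 1 residual degree of freedom.

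**Figure D4:**
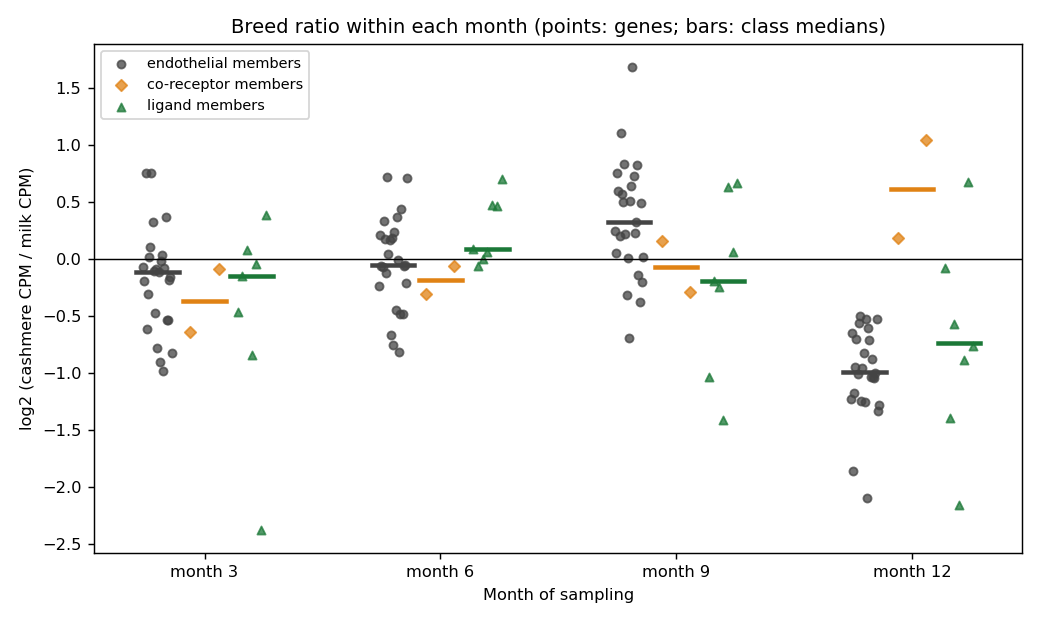
Each point is 1 gene's log2 ratio of cashmere over milk goat CPM within 1 month, for 25 endothelial genes, 2 co-receptors and 7 ligands; bars are class medians, and each ratio compares 1 library with 1 library. All endothelial points lie below 0 at month 12, and most lie above 0 at month 9.

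Ratios of 2 genes inside 1 library do not depend on how libraries are scaled. The 4 pairs given here were chosen from a larger set of pairs after their values were seen and are described without a test. The FPKM ratio of ERG to FLI1 was 1.45 to 1.79 in cashmere goats and 2.53 to 3.70 in milk goats, with no overlap. ERG over PECAM1, not among the 4, was 0.211 to 0.390 in cashmere goats and 0.345 to 0.545 in milk goats. These ranges overlapped, and cashmere goats were lower in 4 of 4 months. LYVE1 over PROX1 was 2.89 to 4.66 in cashmere goats and 4.04 to 8.18 in milk goats, lower in cashmere goats in 4 of 4 months. ANGPT2 over ANGPT1 was 0.382 to 1.19 in cashmere goats and 0.288 to 0.371 in milk goats, and VEGFA over KDR was 0.866 to 1.89 in cashmere goats and 0.824 to 2.91 in milk goats. Of the 4 pairs, the breeds did not overlap for ERG over FLI1 and ANGPT2 over ANGPT1, and they did for the other 2. For ANGPT2 over ANGPT1 the margin was narrow, 0.382 against 0.371. Among the rest of the larger set, PROX1 over PECAM1 did not overlap either, and all others did. It was 0.0263 to 0.0345 in cashmere goats and 0.0213 to 0.0260 in milk goats.

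**Figure D5:**
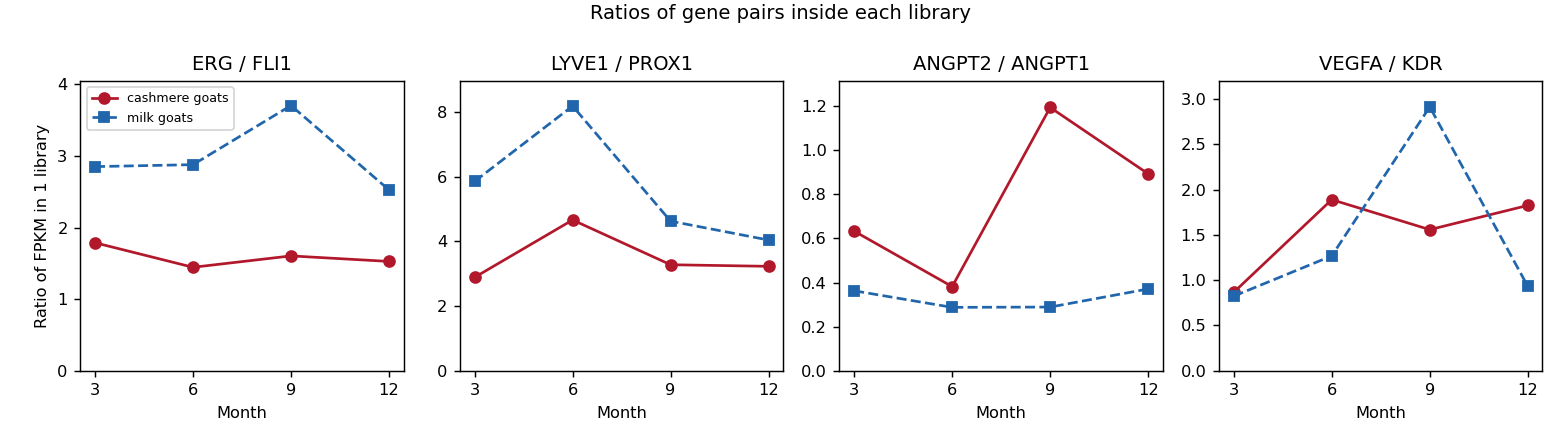
Ratio of the FPKM of 2 genes in 1 library by month (linear axis from 0), in cashmere goats (circles, solid) and milk goats (squares, dashed), for ERG over FLI1, LYVE1 over PROX1, ANGPT2 over ANGPT1 and VEGFA over KDR. The ERG over FLI1 ratio spans 1.45 to 1.79 in cashmere goats and 2.53 to 3.70 in milk goats.

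Other genes of these cells and pathways, taken from lists of known markers, were read beside the 34. Of 30 other endothelial genes, 24 were in the table and 23 tested, and 1 was called between the breeds, against 4.79% of all tested genes. CLEC14A, an endothelial lectin, was the 1 called, at 58.2, 52.1, 26.0 and 29.5 CPM in cashmere goats at months 3, 6, 9 and 12 and 106, 78.8, 56.5 and 134 CPM in milk goats (-1.18 ± 0.25, adjusted p = 0.0472, edgeR). The median breed log2 fold change of these 23 genes was -0.40, with 20 below 0, and that of month 9 over month 3 was -0.97, with 21 below 0 and 0 called in edgeR. Of 36 other vessel growth genes, such as Notch, semaphorin and hypoxia factor genes, 35 were tested and 0 called in either contrast, with medians of 0.04 and -0.32. With any 1 library of months 3, 6 and 9 left out, at most 4 breed calls were made in the whole table, for these lists and those that follow too.

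Markers of other cell types were read in the same way. All 13 mural cell (pericyte and smooth muscle) genes were tested, and none was at 0. They summed to 3038, 2389, 1859 and 2073 CPM in cashmere goats at months 3, 6, 9 and 12 and to 4613, 3088, 3215 and 4241 CPM in milk goats. Of the 13, DES (-1.63 ± 0.27, adjusted p = 0.0325) and LMOD1 (-1.20 ± 0.17, adjusted p = 0.0257) fell in cashmere goats and 0 rose. Of all tested genes, 3.32% were called lower and 1.47% higher. The median breed log2 fold change of the list was -0.41. Of 10 macrophage genes, 9 were in the table, with MARCO at 0 in some libraries, and they summed to 95.2 to 135 CPM in cashmere goats and 78.7 to 225 CPM in milk goats. AIF1 was called, 1 of 8 tested against 4.79% of all tested genes, with a log2 fold change of -1.08 ± 0.24 (adjusted p = 0.0492).

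Hair follicle genes (6 of 10 in the table, none at 0) summed to 22204, 53630, 57824 and 73530 CPM in cashmere goats (months 3, 6, 9 and 12). The milk goat sums were 9939, 62486, 173461 and 2934 CPM, lowest at month 12. In both breeds the highest sum fell in the month of the lowest endothelial median, month 12 in cashmere goats and month 9 in milk goats. The 9 dermal fibroblast genes, none at 0, had a median log2 fold change of -0.86 for month 9 over month 3 with 9 of 9 below 0. The 6 genes of dividing cells had a median of 1.28 with 0 of 6 below 0, and summed to 260 to 611 CPM in cashmere goats and 189 to 829 CPM in milk goats. Red cell and platelet genes (5 of 11 in the table, with ALAS2, GP9 and GP1BA at 0 in some libraries) summed to 8.90 to 14.5 CPM in cashmere goats and 7.85 to 12.8 CPM in milk goats. Skeletal muscle genes (7 of 10, with MYL1 at 0 in some libraries) summed to 43.3 to 87.9 CPM in cashmere goats and 48.2 to 140 CPM in milk goats. The part of these other cell types in the results was not tested.

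The spans of 9 of the 34 genes overlap another gene in the RefSeq annotation ARS1.2: EGFL7, NOS3, ERG, FLI1, TEK, NRP2, ANGPT2, ANGPTL1 and APLN. The libraries are directional per the labels, but whether counting used the strand is not stated. For these 9 genes, reads of the overlapping gene may therefore be included in the counts.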

How the data were processed

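Skin RNA was sequenced as 1 library for each of 2 breeds and 4 months; the extraction text mentions embryos, which the tissue label does not. The authors deposited a table of whole-number read counts per gene, not normalized; they also deposited FPKM for the same genes, and read counts for another gene set of 20780 genes, in which 24 of the 34 genes were found. Bowtie2 is named in the submitters' processing notes; what it did, its version and the genome build are not stated there or in the labels, so no coordinates are printed. The gene length per row of the deposited tables was not used. Genes passing filterByExpr were tested in edgeR 4.0.16 (R 4.3.3; TMM, quasi-likelihood F test, Benjamini-Hochberg over 14085 genes) with month and breed in the model, which leaves 3 residual degrees of freedom. The month, from the labels, pairs the breeds as a replicate block. The breed by season test used a 12-month cosine and sine and leaves 2. Each standard error was derived from a fold change and its F statistic. The test was also run on simulated counts with no breed difference that varied between months. That run does not show how the test behaves where there is such a difference. Alternatives were DESeq2 1.42.0, limma 3.58.1 on log2(FPKM + 1) or log2(FPKM + 0.1), other scalings and filters, thinned libraries, the second count table and leaving out libraries. Values in every library were given for genes past an adjusted p of 0.05, the 5 highest and 5 lowest breed fold changes and 16 preset genes. The 34 genes and all lists were chosen with earlier results of these data known.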

Additional observations from a re-analysis of the deposited data

How the results depend on the processing

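Beside the 1 of the 34 genes called between the breeds (675 of all 14085 tested genes), DESeq2 called 4 (1691 of 14085). Limma on log2 FPKM called 0 with a pseudocount of 1 (1374 of 14085) and 0 with 0.1 (1161 of 14085). The second count table gave 0 of the 24 genes found there (1117 of 14994). The model of breed alone without the replicate block (month) called 0 of the 34 (346 of 14085). Leaving out 1 library gave 0 to 1. Against 0 calls in edgeR, DESeq2 called 6 for any month difference and 17 for month 9 over month 3, and leaving out 1 library gave 0 to 12, 0 to 20, 0 to 2 (month 12 over month 6) and 0 to 2 (breed by season). Genes with cashmere goats below milk goats at month 9 were 10 with TMM, 4 with library totals and 3 on FPKM, while genes below in all 4 months were 6 with TMM and 2 with library totals and genes at least 1.5-fold higher in cashmere goats at month 9 were 10 and 16 (counts on library totals added after seeing the data). The ligand median of milk goats at month 9 was -0.24, -0.59 and -0.60 under the same 3 scalings. Scaling by library totals put the median of all tested genes at 0.14 for the breed contrast and at -0.32 for month 9 over month 3. Leaving out 1 library turned the sign of the breed fold change of EGFL7 (-0.032 to 0.38), SOX18 (-0.066 to 0.61) and FLT4 (-0.0041 to 0.52), and of the month 9 over month 3 change of VEGFA (-0.65 to 0.27), ANGPTL1 (-2.16 to 0.60) and ANGPT2 (-0.66 to 0.068). Leaving out a library leaves its month with 1 library, assumed to vary like the others, and 2 residual degrees of freedom, or 1 in the breed by season test. In the model of month and breed, that month then carries no breed contrast. The cause of these changes was not tested. With 4 libraries per breed, differences smaller than the spread between them cannot be resolved, and low genes such as SOX17 carry wide counting intervals.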
